A study of Mus musculus with 12 samples.

Results

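The genes described are the amino acid and neurotransmitter transporters of 7 solute carrier families, chosen by gene symbol: every gene named as a member of Slc1, Slc3, Slc6, Slc7, Slc36, Slc38 or Slc43. The rule found 61 of the 23156 genes that could be summed from the deposited transcripts, and used no measured value. They comprised 7 genes of Slc1, 2 of Slc3, 19 of Slc6, 15 of Slc7, 4 of Slc36, 11 of Slc38 and 3 of Slc43. One symbol, Slc7a6os, names a gene beside Slc7a6, on the other strand, that does not encode a carrier, so it was counted but is described apart.

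RNA was taken from epididymal white adipose tissue (eWAT), the fat pad beside the epididymis, of male C57BL/6J mice aged 21 weeks after 16 weeks of diet. The ND group (mice 2, 3 and 4) received a normal diet and the HFD group (mice 12, 15 and 18) a high-fat diet. The CLE group (mice 2, 4 and 11) received the same high-fat diet with 1.5% (w/w) of an ethanol extract of chrysanthemum leaf, and the LU group (mice 2, 3 and 8) the high-fat diet with 0.003% (w/w) luteolin, a plant flavone. Each group had 3 mice with 1 library each, so CLE and LU mice differed from ND mice in both the fat of the diet and the supplement.

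Amino acids cross membranes on carriers that differ in substrate and driving force. Slc1 and Slc6 carriers concentrate glutamate, neutral amino acids, taurine, creatine and neurotransmitters with the sodium gradient, and many are best known from the brain. Most Slc7 light chains are exchangers that reach the cell surface only with an Slc3 heavy chain, whereas Slc43 carriers work alone. Slc36 and several Slc38 carriers act at lysosomes, where amino acids released by proteolysis signal to mTORC1, the kinase complex that couples amino acid supply to growth.

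The levels are FPKM, fragment counts divided by the length of the transcript and the size of the library, summed over the transcripts of a gene. The 31 members with at least 1 FPKM in at least 3 libraries were among the 12824 genes tested with limma on log2(FPKM + 1). A gene was called when its Benjamini-Hochberg adjusted p was under 0.05 and its fold change over 1.5 on that scale. The added 1 FPKM compresses the fold change of weakly expressed genes. Sums over all genes ranged from 438191 to 458413 FPKM per library, and Pearson's r across the tested genes between mice of the same group was 0.978 to 0.991. The depth behind the values is unknown, and adipocyte markers were high in all 12 libraries, whereas 7 of 8 epididymis markers had a mean under 1 FPKM in every group.

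Slc1a5, the sodium-dependent exchanger of glutamine and other neutral amino acids, had the highest level of all members and held 49.7% of their summed FPKM. Its mean over the 12 libraries was 938 FPKM, and it lay above the next gene in 12 of 12 libraries. That gene, Slc7a10, an exchanger of serine, glycine and other small neutral amino acids, had a mean of 167 FPKM. Slc38a10 (123 FPKM), Slc43a3 (97.7 FPKM) and Slc36a2 (93.4 FPKM) came after it, and the ranges over libraries of all these neighbours overlapped. Altogether 19 of the 31 tested members had a mean of at least 10 FPKM, and 2 (Slc7a2 and Slc6a7) had a mean under 1 FPKM.

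**Figure D1:**
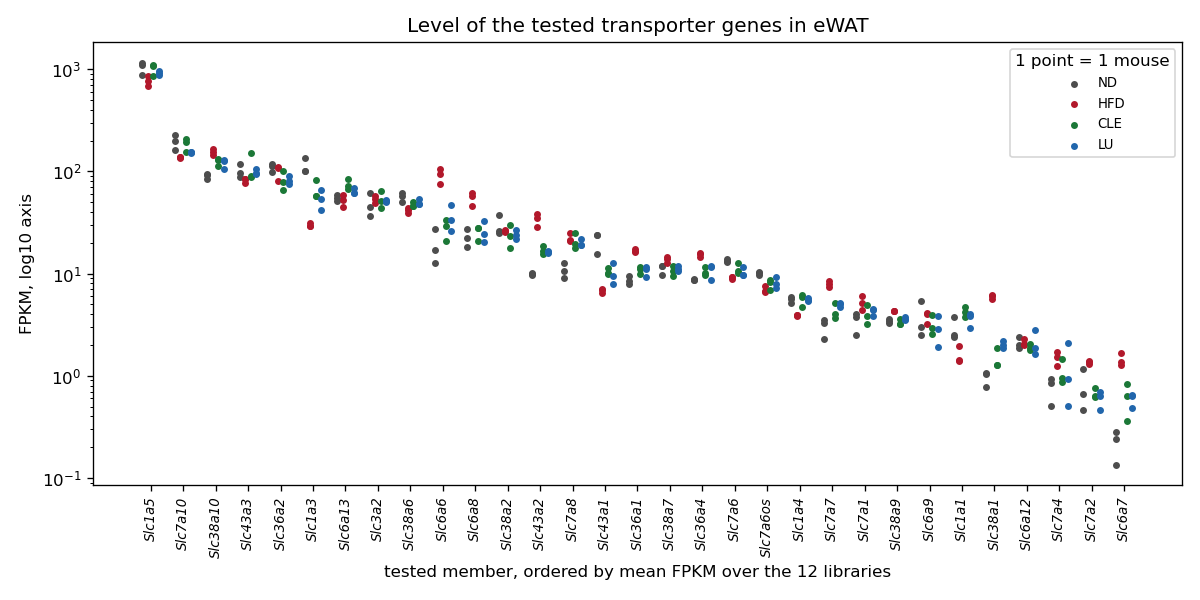
FPKM (log10 axis) of the 31 tested members in each of the 12 libraries, ordered by their mean over all libraries, with 1 point per mouse and colours for ND, HFD, CLE and LU. Slc1a5 lies apart at the top, and HFD points separate from the other groups in Slc6a6, Slc43a2, Slc38a1 and Slc1a3.

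HFD against ND asks which carriers differ between the high-fat and the normal diet, both without a supplement. In HFD, 10 carriers were called higher and Slc1a3 and Slc43a1 lower, that is 12 of 31 members (38.7%), where 25.7% of all tested genes were called. The 10 higher members compare with 14.9% of all genes called higher, and the 2 lower members with 10.8% called lower. The HFD and ND mice did not overlap in 25 of 31 members (80.6%), against 59.6% of all tested genes. The median difference of the tested members was 0.20 on the log2 scale, and that of all tested genes was -0.02.

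CLE against HFD and LU against HFD ask what each supplement changed in mice on the same high-fat diet. With CLE, 6 members were lower and 2 higher than with HFD, so 8 of 31 (25.8%) were called where 16.5% of all genes were (10.2% lower and 6.34% higher). With LU, 7 members were lower and 2 higher, so 9 of 31 (29.0%) were called where 12.5% of all genes were (7.67% lower and 4.78% higher). CLE and HFD mice did not overlap in 22 of 31 members, against 50.5% of all genes, and LU and HFD mice in 22 of 31, against 47.7%. The 6 members Slc6a6, Slc6a8, Slc6a7, Slc38a1, Slc43a2 and Slc7a7 were called higher in HFD and lower with both supplements. Slc6a7, which is in the counts of higher and lower members of all 3 comparisons, passed the filter on low values only through the HFD mice, so its pattern is partly set by the filter. Slc7a2 and Slc7a4, which were not called, would also have failed the filter without the HFD mice. Slc7a2 is among the members without overlap in all 3 comparisons, and Slc7a4 among those of HFD against ND. These comparisons share the HFD mice, so their values are given side by side and are not independent.

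**Figure D2:**
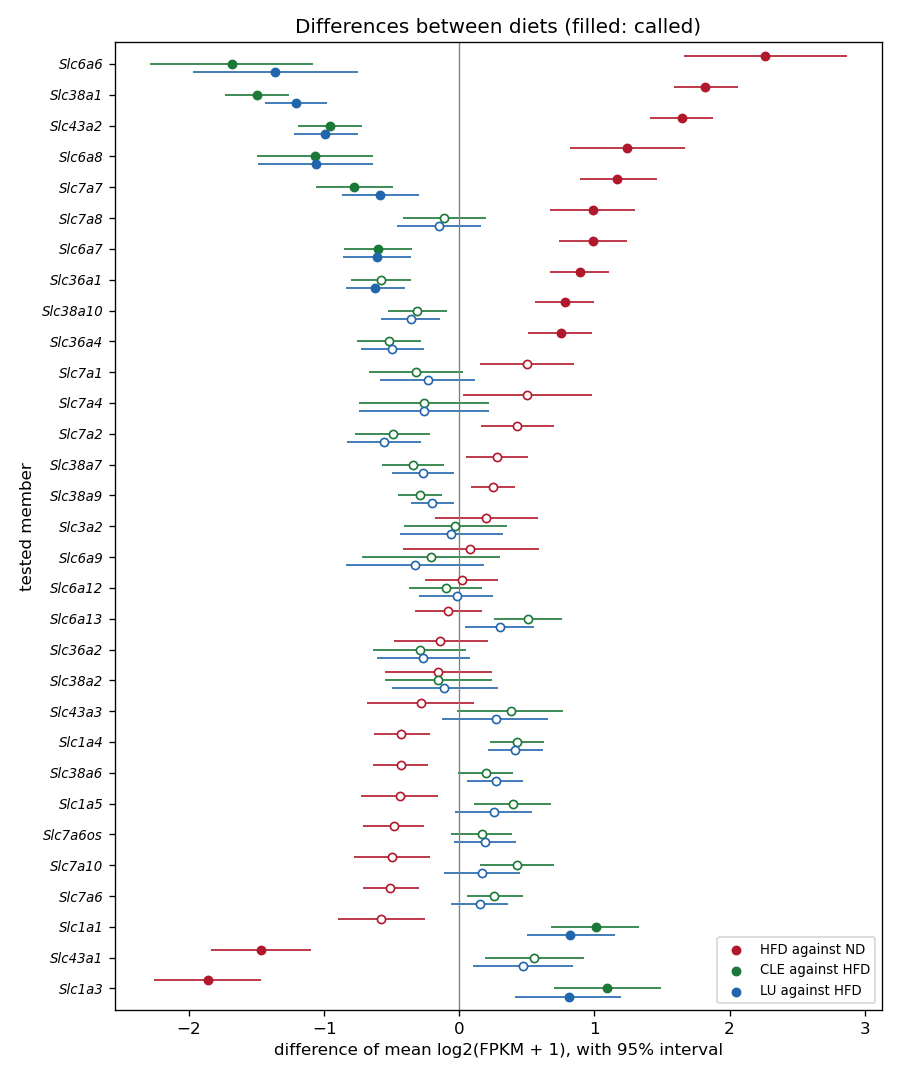
Difference of mean log2(FPKM + 1) of the 31 tested members for HFD against ND, CLE against HFD and LU against HFD, with 95% intervals. Filled points were called, and members are ordered by the HFD against ND difference, from Slc6a6 at 2.26 to Slc1a3 at -1.86.

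Slc6a6, the sodium-dependent taurine carrier, had the largest HFD against ND difference of all members on the log2(FPKM + 1) scale. As a ratio of mean FPKM it was 4.82 times higher in HFD, below the weakly expressed Slc38a1 (6.16) and Slc6a7 (6.50). It was measured at 27.1, 12.6 and 17.2 FPKM in the ND mice, 94.2, 75.0 and 105 in HFD, 20.8, 29.5 and 33.7 in CLE, and 33.7, 26.2 and 47.2 in LU. Every HFD mouse lay above every other mouse, and the CLE and LU mice overlapped with ND. The difference was 2.26 (SE 0.28, limma adjusted p = 5.1e-05) for HFD against ND, -1.68 (SE 0.28, adjusted p = 8.4e-04) for CLE against HFD and -1.36 (SE 0.28, adjusted p = 0.0046) for LU against HFD.

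Taurine is also made in adipocytes from cysteine. Cdo1, the cysteine dioxygenase that starts this route, fell from 672 ± 94.5 FPKM (SD, n = 3) in ND to 336 ± 46.2 in HFD (95% interval of the log2 difference -1.29 to -0.70, adjusted p = 1.0e-04) and was higher again with CLE, at 547 ± 63.3 (0.70, adjusted p = 0.0022). With LU it was 488 ± 47.2, a difference of 0.54 (adjusted p = 0.013) under the fold limit. Csad, the next enzyme, fell from 93.7 ± 14.7 to 38.5 ± 2.90 FPKM (-1.25, adjusted p = 2.0e-05) and rose with CLE to 66.6 ± 8.68 (0.77, adjusted p = 0.0012) and with LU to 59.8 ± 7.51 (0.62, adjusted p = 0.0065). The taurine carrier was thus highest where the enzymes of taurine synthesis were lowest. Of the 7 tested genes of taurine and GABA metabolism, 4 were lower (Fmo1 and Aldh5a1 besides these) and Abat was higher in HFD, with a median of -0.79. Among all tested genes, 10.8% were called lower and 14.9% higher in HFD.

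Slc6a8 is the creatine carrier. Its FPKM was 27.2, 18.2 and 22.3 in ND, 57.0, 45.7 and 60.9 in HFD, 20.7, 28.0 and 28.0 in CLE, and 24.5, 20.2 and 32.9 in LU. The HFD mice stood apart from all others, and both CLE and LU overlapped with ND. The differences were 1.24 (SE 0.20, adjusted p = 3.1e-04), -1.07 (adjusted p = 0.0016) and -1.06 (adjusted p = 0.0026) for HFD against ND, CLE against HFD and LU against HFD. Genes of creatine metabolism moved in the same direction: Gatm, the first enzyme of creatine synthesis, was 3.84 ± 0.714 FPKM in ND and 15.4 ± 1.50 in HFD, and Ckb, the brain-type creatine kinase, was 27.4 ± 4.32 and 99.1 ± 10.3. Both were called higher in HFD (1.77 and 1.83) and lower with CLE (-1.31 and -1.54) and LU (-1.04 and -1.33), which makes 2 of 3 tested genes of that list in each comparison. Among all tested genes, 14.9% were called higher in HFD, 10.2% lower with CLE and 7.67% lower with LU.

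**Figure D3:**
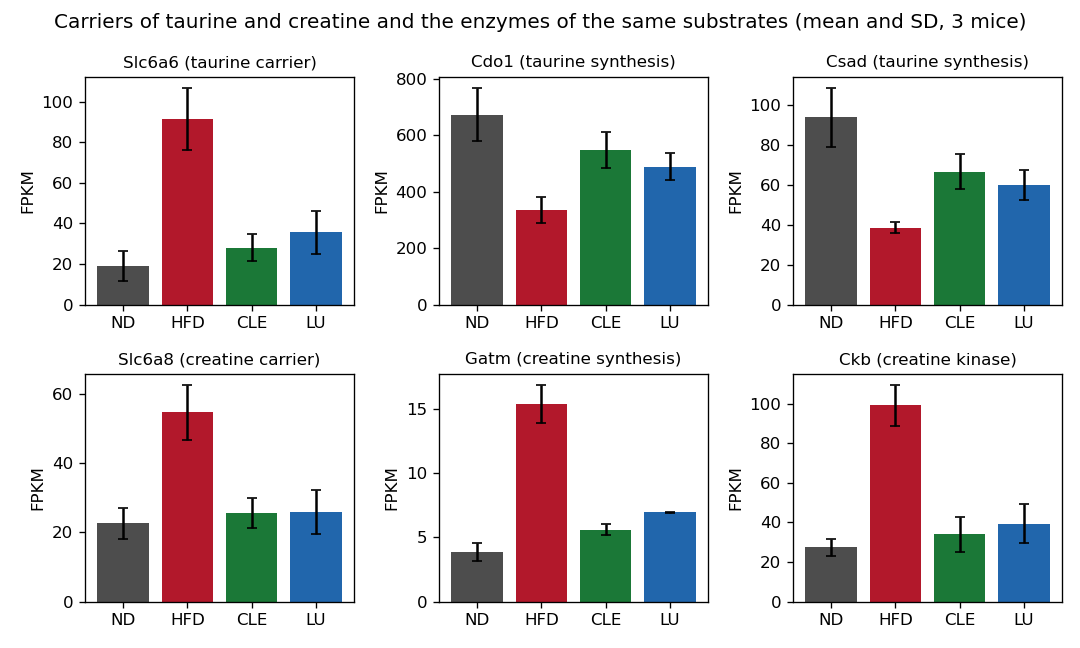
FPKM (mean and SD, 3 mice a group) of the taurine carrier Slc6a6 with the taurine synthesis genes Cdo1 and Csad, and of the creatine carrier Slc6a8 with Gatm and Ckb. Slc6a6, Slc6a8, Gatm and Ckb are highest in HFD, at 91.4, 54.6, 15.4 and 99.1 FPKM, and Cdo1 and Csad are lowest there, at 336 and 38.5 FPKM.

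Among the other Slc6 members, Slc6a7, the proline carrier known from brain, was near the limit of the measurement. Its FPKM was 0.282, 0.134 and 0.243 in ND, 1.67, 1.26 and 1.35 in HFD, 0.363, 0.635 and 0.828 in CLE, and 0.627, 0.480 and 0.651 in LU. It passed the filter only through the HFD mice, so its call as higher in HFD (0.99) and lower with CLE (-0.60) and LU (-0.61) follows in part from the filter. All its FPKM came from transcripts assembled as variants of the annotated ones. Without CLE mouse 2 the CLE difference was -0.49, and without LU mouse 3 the LU difference was -0.56, both under the fold limit.

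Slc6a13, which takes up GABA, taurine and betaine, differed little between ND (55.0 ± 3.68 FPKM) and HFD (52.3 ± 6.72). It was 84.3, 67.5 and 71.9 FPKM in CLE and 61.9, 69.1 and 61.4 in LU, so all mice of both groups lay above all HFD mice. The CLE difference of 0.51 (adjusted p = 0.0056) was under the fold limit, and the LU difference of 0.30 had an adjusted p of 0.077. Its neighbour Slc6a12, a betaine and GABA carrier, lay between 1.64 and 2.79 FPKM in all 12 libraries, and Slc6a9, a glycine carrier, between 1.92 and 5.45 FPKM, and neither was called. The carriers of serotonin (Slc6a4) and noradrenaline (Slc6a2) stayed under 1 FPKM in every library, and the dopamine carrier Slc6a3 was listed at 0 in all 12.

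Slc3a2, the heavy chain that most Slc7 light chains need, was not called in any comparison. Its FPKM was 61.9, 36.3 and 44.5 in ND, 57.4, 49.4 and 53.4 in HFD, 43.9, 63.6 and 51.3 in CLE, and 50.3, 50.8 and 52.5 in LU. The groups overlapped throughout, and the 95% interval of the HFD against ND difference ran from -0.18 to 0.58 on the log2 scale. Changes between those bounds were therefore not excluded at this spread.

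The tested light chains that use it changed unequally. Slc7a5 had no transcript that could be summed under that name and is not described. Slc7a7, which exports cationic amino acids in exchange for neutral ones, was 2.27, 3.27 and 3.48 FPKM in ND, 7.38, 8.55 and 7.94 in HFD, 3.68, 3.98 and 5.10 in CLE, and 4.66, 5.18 and 5.02 in LU. The 4 groups formed separate ranges, apart from CLE and LU, which overlapped. The differences were 1.17 (SE 0.13, adjusted p = 2.6e-05) for HFD against ND, -0.78 (adjusted p = 9.6e-04) for CLE against HFD and -0.59 (adjusted p = 0.0071) for LU against HFD. Assembled variants held 75.1% of its FPKM, and without such transcripts the CLE difference was -0.41 (adjusted p = 0.25) and the LU difference -0.61 (adjusted p = 0.099). The LU difference was also under the fold limit without HFD mouse 15 (-0.54) or LU mouse 2 (-0.55).

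Slc7a8, a light chain for large and small neutral amino acids, rose with the high-fat diet and was not called lower with either supplement. Its FPKM was 10.6, 9.05 and 12.8 in ND, 24.8, 21.2 and 20.8 in HFD, 17.6, 25.1 and 19.5 in CLE, and 19.2, 21.7 and 18.9 in LU. All 9 mice on the high-fat diets lay above all ND mice, and the HFD, CLE and LU mice overlapped. The difference was 0.99 (SE 0.14, adjusted p = 1.8e-04) for HFD against ND, 0.88 (adjusted p = 0.014) for CLE against ND and 0.84 (adjusted p = 0.0043) for LU against ND. The 95% interval for CLE against HFD was -0.42 to 0.20 and for LU against HFD -0.46 to 0.16.

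Slc7a10, second in level over the 12 libraries and below Slc38a10 in the HFD mice, was 198, 162 and 225 FPKM in ND, 137, 135 and 137 in HFD, 206, 155 and 194 in CLE, and 156, 150.1 and 154 in LU. The HFD mice were the lowest of all in this gene, and the CLE mice overlapped with ND. Its differences of -0.50 for HFD against ND (adjusted p = 0.0064) and 0.43 for CLE against HFD (adjusted p = 0.022) were under the fold limit, and without ND mouse 3 the former was -0.63 (adjusted p = 0.0016). Slc7a6, a light chain related to Slc7a7, was 13.4 ± 0.364 FPKM in ND and 9.16 ± 0.240 in HFD, with a difference of -0.51 (adjusted p = 0.0010) that was under the fold limit too. Its neighbour on the other strand, Slc7a6os, had a difference of -0.48 (adjusted p = 0.0024). Slc7a4, an orphan relative of the cationic carriers, lay at 0.763 ± 0.230 FPKM in ND and 1.49 ± 0.223 in HFD and was not called. It would have failed the filter on low values without the HFD mice.

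The cationic amino acid carriers Slc7a1 and Slc7a2, which bring arginine into the cell, were not called. Slc7a1 was 4.04, 2.50 and 3.75 FPKM in ND and 5.17, 4.42 and 6.10 in HFD, and these ranges did not overlap (difference 0.50, adjusted p = 0.022). Slc7a2 was 1.17, 0.464 and 0.660 FPKM in ND, 1.39, 1.29 and 1.36 in HFD, 0.615, 0.754 and 0.630 in CLE, and 0.688, 0.466 and 0.636 in LU. It would have failed the filter on low values without the HFD mice, so its pattern is partly set by that filter. Its differences of -0.49 with CLE (adjusted p = 0.010) and -0.56 with LU (adjusted p = 0.0074) were under the fold limit on a scale that compresses such low values. With a pseudocount of 0.1 FPKM they were -0.92 and -1.07, past the limit, and the HFD against ND differences of Slc7a1 (0.61) and Slc7a2 (0.82) passed it too. Slc7a1 was also called higher in HFD without ND mouse 2 or HFD mouse 15 (0.60 each), and Slc7a2 without ND mouse 2 (0.59). Without LU mouse 2, Slc7a2 was called lower with LU (-0.60). Slc7a11, the cystine carrier of system xc-, stayed under the filter, at 0.0228 to 0.0583 FPKM in ND and 0.165 to 0.337 in HFD.

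Slc43a1 and Slc43a2 both carry leucine and other large neutral amino acids without a heavy chain, and they moved in opposite directions with the high-fat diet. Slc43a2 was 10.2, 10 and 9.74 FPKM in ND, 34.8, 28.3 and 37.9 in HFD, 15.4, 18.5 and 16.5 in CLE, and 16.8, 15.9 and 16.4 in LU. Slc43a1 was 23.6, 23.7 and 15.7 FPKM in ND, 6.51, 6.88 and 7.08 in HFD, 11.3, 10.2 and 9.97 in CLE, and 9.37, 12.6 and 7.99 in LU. In both genes the CLE and LU mice lay between the ND and HFD mice and overlapped with neither.

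The HFD against ND difference was 1.65 (SE 0.11, adjusted p = 7.5e-07) for Slc43a2 and -1.47 (SE 0.17, adjusted p = 3.0e-05) for Slc43a1. Slc43a2 fell with CLE (-0.96, adjusted p = 7.1e-05) and LU (-0.99, adjusted p = 1.9e-04). Slc43a1 differed by 0.55 with CLE (adjusted p = 0.025) and 0.47 with LU (adjusted p = 0.058), both under the fold limit. The deposited gene name Slc43a2 also covers transcripts of the neighbouring genes Scarf1 and Rilp, which were left out of the sum. With them, the differences were 0.99 for HFD against ND, -0.58 for CLE against HFD and -0.59 for LU against HFD, so that the CLE call was lost. The calls of Slc43a2 against ND described further on were lost as well, at 0.41 for both CLE (adjusted p = 0.059) and LU (adjusted p = 0.038). Slc43a3, which carries purine bases, was not called, with 81.9 ± 4.45 FPKM in HFD and 100.4 ± 14.8 in ND.

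Slc38a1, a sodium-dependent glutamine carrier, was 0.769, 1.05 and 1.07 FPKM in ND, 5.98, 5.61 and 6.22 in HFD, 1.28, 1.27 and 1.87 in CLE, and 1.85, 1.99 and 2.17 in LU. The HFD mice lay far above all others, and all CLE and LU mice lay above ND. The differences were 1.82 (SE 0.11, adjusted p = 6.6e-07), -1.50 (adjusted p = 1.7e-05) and -1.21 (adjusted p = 1.1e-04) for HFD against ND, CLE against HFD and LU against HFD. Slc38a2, a carrier of the same kind that lies beside Slc38a1 and is induced by amino acid shortage, was 29.6 ± 6.70 FPKM in ND, 26.0 ± 0.655 in HFD, 23.7 ± 6.08 in CLE and 24.2 ± 2.63 in LU. It was not called in any comparison, with a 95% interval of -0.55 to 0.24 for HFD against ND. Slc38a6, a less studied relative, was 56.3 ± 5.76 FPKM in ND and 41.3 ± 2.30 in HFD, without overlap, and its difference of -0.43 (adjusted p = 0.0025) was under the fold limit.

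Slc1a3, a high-affinity glutamate and aspartate carrier best known from astrocytes, was the member with the largest fall. Its FPKM was 134, 101 and 102 in ND, 31.6, 28.9 and 29.3 in HFD, 83.1, 58.0 and 56.9 in CLE, and 53.6, 66.1 and 42.3 in LU. The ND mice lay above all others and the HFD mice below all others. The difference was -1.86 (SE 0.18, adjusted p = 9.5e-06) for HFD against ND, 1.09 (adjusted p = 8.8e-04) for CLE against HFD and 0.81 (adjusted p = 0.0074) for LU against HFD.

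Slc1a1, which carries glutamate and cysteine, was 3.80, 2.53 and 2.40 FPKM in ND, 1.40, 1.44 and 1.96 in HFD, 3.74, 4.75 and 4.16 in CLE, and 3.86, 2.96 and 3.99 in LU. The HFD mice were the lowest, and the other groups overlapped. It was called higher with CLE (1.01, adjusted p = 4.1e-04) and LU (0.82, adjusted p = 0.0023), and its HFD against ND difference of -0.58 (adjusted p = 0.0071) was just under the fold limit. The neutral amino acid exchangers Slc1a4 and Slc1a5 had HFD against ND differences of -0.43 (adjusted p = 0.0026) and -0.44 (adjusted p = 0.015), under the limit too. Slc1a5 was 884, 1100.1 and 1163 FPKM in ND and 686, 855 and 768 in HFD, without overlap. Thus 4 of 4 tested Slc1 members had lower values in all HFD mice than in all ND mice, and Slc1a3 alone was called. Counted in either direction, HFD and ND mice did not overlap in 59.6% of all tested genes.

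**Figure D4:**
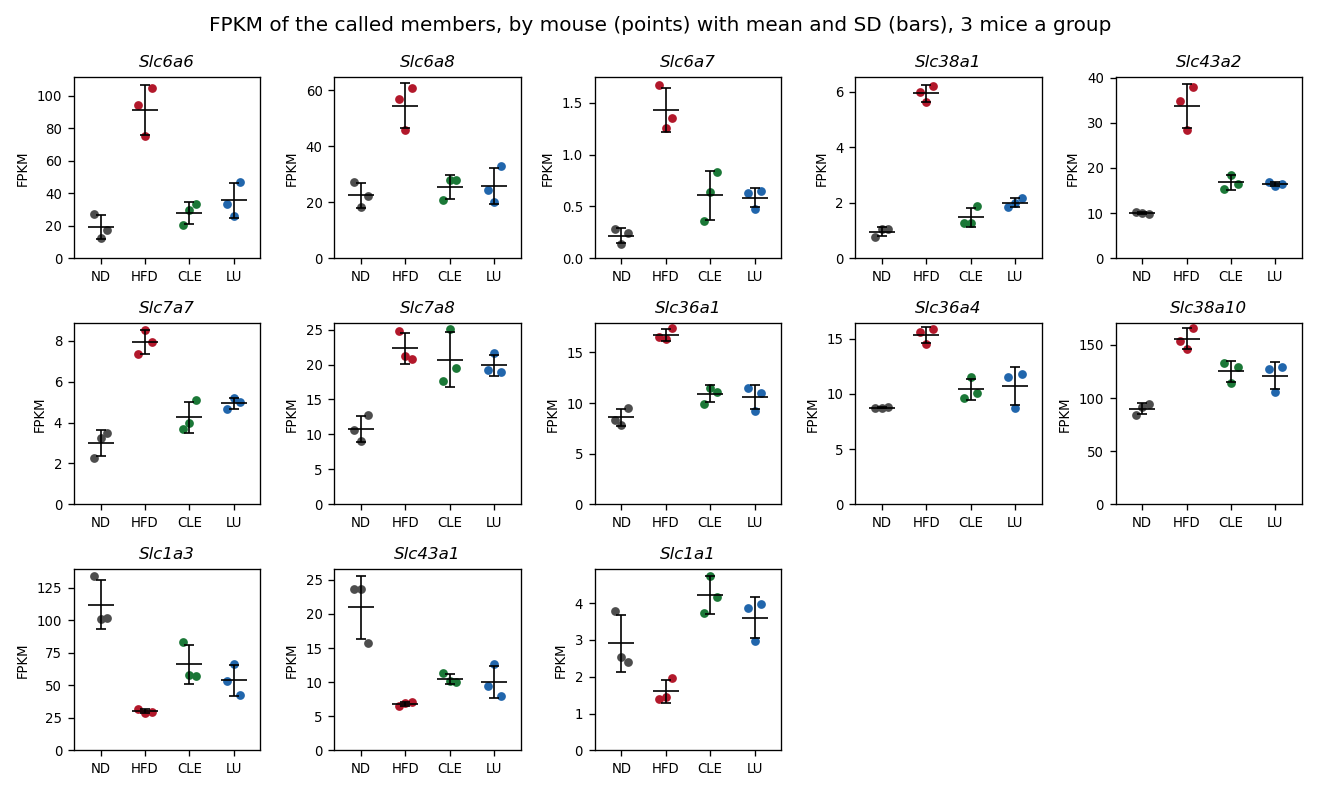
FPKM of the 13 members called in at least 1 comparison, by mouse (points) with group mean and SD (bars), 3 mice a group. The first 6 are highest in HFD and lower with CLE and LU, Slc7a8 stays near 20 FPKM on all 3 high-fat diets, and Slc1a3, Slc43a1 and Slc1a1 are lowest in HFD.

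Of the carriers known from lysosomes and other inner membranes, Slc36a1, a proton-coupled carrier that exports small amino acids from lysosomes, was 8.37, 7.88 and 9.50 FPKM in ND, 16.5, 16.3 and 17.4 in HFD, 9.93, 11.5 and 11.1 in CLE, and 11.5, 9.18 and 11 in LU. The HFD mice lay above all others. It rose in HFD (0.89, SE 0.10, adjusted p = 2.7e-05) and fell with LU (-0.62, adjusted p = 0.0012), while the CLE difference of -0.58 (adjusted p = 0.0011) was just under the fold limit. Its CLE against LU difference was 0.04, with a 95% interval of -0.18 to 0.26. Without LU mouse 3 the LU difference was -0.53, under the limit, and the CLE difference passed it without HFD mouse 12 (-0.59), HFD mouse 15 (-0.60), CLE mouse 4 (-0.62) or CLE mouse 11 (-0.60).

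Slc36a4, a related carrier, was 8.73 ± 0.0495 FPKM in ND and 15.3 ± 0.732 in HFD (0.75, adjusted p = 1.7e-04), and its differences with CLE (-0.52) and LU (-0.50) were under the fold limit. Slc38a10 was 90.1 ± 5.09 FPKM in ND and 156 ± 10.3 in HFD (0.78, adjusted p = 7.2e-05), with differences of -0.31 and -0.36 with CLE and LU. Of its transcripts, the one with the highest mean gave 0.46 for HFD against ND, under the limit. Slc38a9, the lysosomal arginine sensor of mTORC1, was 3.45 ± 0.186 FPKM in ND and 4.30 ± 0.0237 in HFD, a difference of 0.25 (adjusted p = 0.013). Slc38a7, a lysosomal glutamine carrier, differed by 0.28 (adjusted p = 0.043), and Slc36a2, a carrier of glycine and proline, was not called, at 99.2 to 117 FPKM in ND and 80.9 to 110.0 in HFD. Assembled variants held 99.6% of the FPKM of Slc38a9 and 87.2% of that of Slc38a7.

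Slc15a3 and Slc15a4, lysosomal carriers of histidine and small peptides, were measured in a list of other lysosomal and vesicular carriers. Slc15a3 was 1.93 FPKM in ND and 36.2 in HFD on average (3.68, SE 0.37, adjusted p = 1.2e-05) and fell with CLE to 8.19 (-2.23) and with LU to 10.7 (-1.69). Slc15a4 was 9.42 and 15.8 FPKM (0.69, adjusted p = 0.0029) and fell with CLE (-0.69). Of the 7 tested genes of that list, 4 were called higher in HFD, the others being Slc17a5 and Slc18a1, and none lower. Against HFD, 2 were called lower with CLE and 1 with LU, and none higher. Of all tested genes, 14.9% were higher in HFD, 10.2% lower with CLE and 7.67% lower with LU.

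Promoters are shown for 4 members: both with an E-box, Slc43a1 as a called member with a match, and Slc1a3 as a called member with none. RefSeq sequences (GRCm38.p6) of the 250 bases before a transcription start were found for 22 of the 31 tested members, in 37 windows. The motifs, on either strand, were TGATGNAAT of the amino acid response element, TGACNNNGC of the antioxidant response element and TCACGTG, an E-box of the kind common in lysosomal genes. They were found in 0.816%, 10.2% and 3.13% of all 32851 windows, and in 0, 6 and 2 of the 22 members. Counted by window, they were in 0, 7 and 2 of the 37. The E-box was found in Slc36a1 and Slc38a7 and not in the windows of the other inner membrane carriers Slc36a4, Slc38a9 and Slc38a10, and TGACNNNGC in Slc43a1, Slc38a2, Slc6a13, Slc6a9, Slc7a1 and Slc7a6. Capitals mark the match, which on the minus strand reads as the reverse complement, and each sequence is printed along the strand of its gene.
Slc36a1 (chr11:55204090-55204339, plus strand): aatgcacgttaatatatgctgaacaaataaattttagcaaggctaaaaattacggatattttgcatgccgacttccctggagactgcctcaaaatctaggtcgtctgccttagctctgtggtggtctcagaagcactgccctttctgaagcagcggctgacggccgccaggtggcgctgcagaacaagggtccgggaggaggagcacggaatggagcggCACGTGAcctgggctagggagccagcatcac
Slc38a7 (chr8:95853492-95853741, minus strand): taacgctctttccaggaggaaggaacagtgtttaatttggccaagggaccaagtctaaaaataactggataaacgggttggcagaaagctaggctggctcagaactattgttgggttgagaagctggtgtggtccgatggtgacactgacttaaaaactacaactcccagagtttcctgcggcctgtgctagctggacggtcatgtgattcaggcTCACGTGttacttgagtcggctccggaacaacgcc
Slc43a1 (chr2:84840073-84840322, plus strand): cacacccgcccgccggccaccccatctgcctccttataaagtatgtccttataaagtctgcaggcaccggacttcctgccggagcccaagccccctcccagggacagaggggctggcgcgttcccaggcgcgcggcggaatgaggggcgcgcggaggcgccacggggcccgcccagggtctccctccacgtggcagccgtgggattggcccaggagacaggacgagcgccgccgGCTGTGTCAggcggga
Slc1a3 (chr15:8710808-8711057, minus strand): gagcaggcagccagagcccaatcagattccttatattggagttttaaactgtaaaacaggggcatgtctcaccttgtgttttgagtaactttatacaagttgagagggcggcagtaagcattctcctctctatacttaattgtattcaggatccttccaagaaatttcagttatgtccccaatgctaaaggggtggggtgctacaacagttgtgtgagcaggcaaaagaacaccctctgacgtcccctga
The E-box ends shortly before the RefSeq start in both genes, beginning 31 bases before it in Slc36a1 and 35 in Slc38a7. The match in Slc43a1 begins 16 bases before its RefSeq start. The main deposited transcripts of Slc38a7 start further upstream, at 95853618 or 95853539, so its E-box lies inside their span. Those of Slc43a1 start upstream of its window, at 84839395 and 84839408, so its match lies inside their span too. GC content was 53.2%, 49.6%, 70.8% and 44.8% in the order shown. A match describes these letters and does not show that a factor binds there.

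CLE against ND and LU against ND ask what still differed from the normal diet. In CLE, 4 of 31 members were called (12.9%, all genes 2.98%), Slc43a2 (0.69, adjusted p = 0.010) and Slc7a8 higher and Slc1a3 (-0.77, adjusted p = 0.036) and Slc43a1 (-0.92, adjusted p = 0.016) lower. Of all genes, 2.11% were higher and 0.873% lower. In LU, 5 of 31 were called (16.1%, all genes 6.57%), namely the same 4 (Slc43a2 0.66, Slc1a3 -1.05, Slc43a1 with an interval of -1.37 to -0.63) and Slc38a1 (0.61, adjusted p = 0.0045), with 4.98% of all genes higher and 1.59% lower. Non-overlapping groups were found in 13 of 31 members in each comparison, against 24.7% and 30.1% of all genes. The ND mice are shared by both comparisons.

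Several of these calls against ND depended on single libraries. The CLE difference of Slc1a3 lost its call without ND mouse 2 (-0.64, adjusted p = 0.10), CLE mouse 4 (-0.69, adjusted p = 0.097) or CLE mouse 11 (-0.68, adjusted p = 0.12), and its adjusted p was 0.052 to 0.058 without ND mouse 3, ND mouse 4, any HFD mouse or LU mouse 2. For Slc43a1 it was lost without ND mouse 2 (-0.82, adjusted p = 0.053) or CLE mouse 11 (-0.88, adjusted p = 0.055). Slc38a1 in LU was under the fold limit without ND mouse 2 (0.54) or LU mouse 8 (0.58).

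CLE and LU were compared with each other on the same background diet. No member was called (0 of 31, all genes 0.00780%), 1 member had an unadjusted limma p under 0.05, and 0 members had groups that did not overlap, against 8.99% of all genes. The member was Slc38a1, whose mean was lower in CLE than in LU (-0.29, 95% interval -0.52 to -0.05, adjusted p = 0.90). For Slc6a6 the interval of CLE against LU ran from -0.93 to 0.28, and for Slc1a3 from -0.11 to 0.68, so differences of that size were not excluded.

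Some members that lie near each other on a chromosome (GENCODE M21, GRCm38) were called differently. Slc7a7 (chr14:54369442-54417780) was called lower with both supplements and Slc7a8 (chr14:54722209-54781946) with neither. Slc43a1 (chr2:84838850-84863594) fell in HFD, whereas Slc43a3 (chr2:84936579-84958509) was not called. Slc38a1 (chr15:96571418-96642913) rose, and Slc38a2 (chr15:96687392-96699730) was not called. Likewise Slc36a1 (chr11:55204350-55236330) rose and Slc36a2 (chr11:55158470-55185077) was not called. Other such pairs, Slc6a12 with Slc6a13 and Slc7a6 with Slc7a6os, were not called in any comparison. These are whole gene spans, with exons and introns.

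The cell types of the tissue moved with the diets. The summed FPKM of 10 macrophage markers (Adgre1, Cd68, Csf1r, Itgam, Itgax, Mrc1, Trem2, Gpnmb, Cd14 and Lyz2) ranged from 330.0 to 498 in ND, 2907 to 3383 in HFD, 589 to 1033 in CLE and 960.4 to 1189 in LU. All 10 were called higher in HFD and lower with CLE and with LU. The sum of 10 adipocyte markers ranged from 32908 to 34382 in ND, 16384 to 18581 in HFD, 25562 to 28173 in CLE and 24302 to 29602 in LU, with 7 of 10 lower and 1 higher in HFD. Against HFD, 7 were higher and 1 lower with CLE, and 4 higher and 1 lower with LU. No marker of either list was at 0. Like the macrophage markers, Slc6a6, Slc6a8, Slc6a7, Slc38a1, Slc43a2 and Slc7a7 were called higher in HFD and lower with both supplements. Slc1a3 and Slc43a1 were called lower in HFD, as 7 of the 10 adipocyte markers were, and Slc1a3 was called higher with both supplements. Slc7a8, called higher in HFD, stayed near its HFD level with CLE and LU, where the macrophage sum was lower. The part of these cells in the members' differences was not tested, and in whole tissue fewer cells of a type and less RNA per cell cannot be told apart. The T cell marker sum was 8.41 to 11.4 FPKM in ND, 35.7 to 45.0 in HFD, 10.6 to 20.1 in CLE and 13.7 to 22.9 in LU, with 5 of 10 markers under 1 FPKM on average in every group. Of the 5 tested T cell markers, 2 were called higher in HFD, with a median difference of 0.30. Against HFD, 1 was called lower with CLE (median -0.43) and 1 with LU (median 0.06). Of 6 tested mast cell markers, 4 were higher and 1 lower in HFD, and 4 were lower and 0 higher with each supplement. Summed mesothelial markers were lower in HFD (2.36 to 7.88 FPKM) than in ND (13.1 to 65.9 FPKM). Of 8 endothelial markers, 3 were lower and 0 higher in HFD, 5 were higher with CLE and 6 with LU. Of all tested genes, 14.9% were called higher and 10.8% lower in HFD. With CLE, 6.34% were higher and 10.2% lower, and with LU 4.78% and 7.67%. Of 10 Schwann cell and sympathetic nerve markers, 7 had a mean under 1 FPKM in every group.

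Genes that sense or use amino acids were counted from lists set by pathway. Of all tested genes, 14.9% were called higher and 10.8% lower in HFD, 6.34% and 10.2% with CLE, and 4.78% and 7.67% with LU. Of 18 genes of the integrated stress response, which ATF4 drives when amino acids are short, 3 were higher and 6 lower in HFD, with a median of -0.08. Asns, the asparagine synthetase, fell from 49.2 to 15.6 FPKM (-1.53, adjusted p = 2.3e-04) and Chac1, which degrades glutathione, from 14.8 to 4.98 (-1.39, adjusted p = 1.1e-04), while Mthfd2, a mitochondrial folate enzyme, rose from 2.96 to 9.63 (1.43, adjusted p = 2.8e-05) and Ddit3 from 11.7 to 18.9 (0.64). With CLE, 5 of the 18 were higher, among them Sesn2 (1.11) and Asns (0.85), and 2 were lower. With LU, 3 were higher, Sesn2 (0.90), Chac1 (0.83) and Trib3 (0.68), and Mthfd2 was lower (-0.69).

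Of 24 tested genes of mTORC1 amino acid sensing, 5 were higher and 2 lower in HFD, where 14.9% and 10.8% of all tested genes were. Fnip2, a partner of folliculin, rose from 5.12 to 24.2 FPKM (2.02, adjusted p = 1.4e-05) and Sesn3 from 6.59 to 18.8 (1.40). Sesn2, a leucine sensor, fell from 49.1 to 19.2 (-1.27, adjusted p = 6.6e-04) and Castor1, an arginine sensor, from 24.4 to 15.5 (-0.61). Fnip2 was lower with CLE (-1.59) and LU (-1.37), and Sesn2 and Castor1 were higher with both.

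Among 13 tested genes of arginine and polyamine metabolism, 4 were higher and 1 lower in HFD. Ass1, which makes the precursor of arginine, rose from 2.49 to 15.4 FPKM (2.26, adjusted p = 4.0e-04), Arg1, the arginase of the urea cycle, rose from 0.206 to 2.02 (1.31), and Nos3, the endothelial nitric oxide synthase, fell from 23.5 to 12.6 (-0.81). Arg1 and the spermine synthase Sms were lower with CLE and LU. The ND mean of Arg1 lay under the 1 FPKM of the filter, so its calls may be partly set by that filter. Of 13 tested genes of glutamine and glutamate metabolism, 3 were higher, led by Aldh18a1 (1.32) and Got1 (0.79), and 2 lower in HFD, Asns and Gpt2 (-1.09). Glutathione genes gave 2 of 9 lower in HFD (Chac1 and Chac2), and serine and glycine genes 1 of 10 higher (Mthfd2) and 1 lower (Amt, -0.91). Neither of the 2 tested plasma membrane carriers outside the families was called.

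Of 6 tested genes of catecholamine and serotonin turnover, Maoa, the monoamine oxidase A, rose in HFD from 11.4 to 32.9 FPKM (1.45, adjusted p = 3.8e-06) and fell with CLE (-0.95) and LU (-0.66). Slc22a3, a low-affinity organic cation carrier that also takes up catecholamines, fell from 62.0 to 28.0 FPKM in HFD (-1.12, adjusted p = 9.8e-06) and rose with CLE (0.90) and LU (0.78). Sult1a1 and Maob were lower in HFD as well.

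Of the 30 members that were not tested, 27 stayed under 1 FPKM in every library and 14 had a mean under 0.1 FPKM. Slc6a3, Slc6a11 and Slc7a12 were listed at 0 in all 12 libraries. The highest single values were 2.28 FPKM for Slc7a9 in ND mouse 4 and 1.03 for Slc38a11 in ND mouse 2, and Slc7a3 reached 1 FPKM in ND mouse 3. Slc7a9 was 0.932, 0 and 2.28 FPKM in ND and 0, 0 and 2.06 in LU, so its mice of 1 group differed widely. The summed epididymis markers were 1.67, 0.505 and 5.85 FPKM in the same ND mice and 0.0877, 2.28 and 3.41 in the LU mice, against at most 0.472 in HFD and CLE. The part of epididymis in these values was not tested. Among the others were Slc1a2, Slc1a6, Slc1a7, Slc3a1, Slc6a2, Slc6a4, Slc6a5, Slc6a14, Slc6a15, Slc6a17, Slc6a18, Slc6a19, Slc6a20a, Slc6a20b, Slc7a11, Slc7a13, Slc7a14, Slc7a15, Slc36a3, Slc38a3, Slc38a4, Slc38a5 and Slc38a8.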

How the data were processed

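Whole eWAT of 12 mice was sequenced with a TruSeq RNA kit, whose strand setting is not given in the sources used here. The authors deposited FPKM values per transcript, known or assembled, and their methods name Cuffdiff for gene counts, while the submitters' processing notes name CASAVA 1.8.2, TopHat2 2.0.12, Bowtie2 2.2.3 and Cufflinks 2.2.1. The deposited table had 152210 rows and 15 FPKM columns, of which 3 matched no sample and were not used. The heading MD4 was taken for ND mouse 4 by inference, from its number and the letter R, after the other titles were placed. Columns that mark transcripts the authors called at a fold change and p-value were not used. The genome build is not given in the sources used here. Of 77000 annotated transcripts found in GENCODE M21 (GRCm38), 87.6% had the same start and end.

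Transcripts with an Ensembl identifier, plain or of class = or j, were summed per GENCODE gene. Differences were fitted by limma (version 3.58.1, R 4.3.3) to log2(FPKM + 1), over the 12 libraries together with 6 contrasts, because FPKM carry no counts for the study's count test. For 3 against 3 mice an exact two-sided permutation test cannot go below 0.1, so whether the groups overlap is given instead. The sample titles give each mouse a number and name no litter, batch or day. The column headings of the libraries with an R in their title also end in a date-like number, whose meaning is not stated. Members named are those called in any contrast and those set by role, and genes named in a list are the called ones, led by the largest changes. Slc7a5 was also set by role, but no transcript that could be summed carried that name, so it is not a member. The members and lists were chosen with earlier results of these data known. Alternatives changed the pseudocount, filter, scaling, samples, transcript rule, moderation and thresholds. Plots were made with matplotlib 3.10.9 in Python 3.11.15.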

Additional observations from a re-analysis of the deposited data

Results flagged for a closer look

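Transcripts on the strand opposite to Slc7a15 carried a signal that no comparison above uses. They are deposited under the name Slc7a15 with the class of antisense overlap, so they were left out of that gene's sum. Their FPKM was 0.0193, 0.685 and 0.248 in the ND mice and 6.55, 4.00 and 5.84 in the HFD mice, with means of 0.317 and 5.46 FPKM. It was 0.837, 1.72 and 0.430 in CLE and 1.02, 0.231 and 3.05 in LU. All HFD mice lay above all other mice. Slc7a15 itself stayed at 0.380 FPKM or lower in every library. This row of the table was singled out because all HFD mice exceeded all ND mice, and it was not tested across genes. Since the strand setting is not stated, reads of a gene and of its antisense partner cannot be told apart.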

How the results depend on the processing

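Of the 38 calls of single members, 11 of 12 for HFD against ND, 5 of 8 for CLE against HFD, 6 of 9 for LU against HFD, 0 of 4 for CLE against ND and 2 of 5 for LU against ND were kept under every alternative that could be run. The adjusted p alone, without the fold limit, gave 9 members lower in HFD (2 with it), 7 higher and 12 lower with CLE (2 and 6), and 6 higher in LU against ND (3). It also added Slc38a7, Slc38a9, Slc7a1 and Slc7a2 to the 10 members higher in HFD. A filter on a mean of 5 FPKM left 1 member higher with CLE and 1 with LU against HFD. Taking the transcript with the highest mean gave 4 lower in LU against HFD (7 in the sum), 1 higher and 0 lower in CLE against ND, and 1 lower in LU against ND. Without the 4 libraries that carry an R in their title, ND kept mouse 2 alone, so only differences are given. For CLE against ND they were 0.60 for Slc43a2, 0.75 for Slc7a8, -0.95 for Slc1a3 and -1.08 for Slc43a1. In CLE against ND, where 2 were higher and 2 lower, the counts were 0 and 0 in a fit of CLE and ND alone. There, 1 was lower without a filter, 1 lower without assembled variants and 1 higher with rows assigned by the deposited gene name, an alternative chosen after seeing the data. LU against ND gave 5 higher with a pseudocount of 0.1. Leaving out each library in turn gave 9 to 12 higher and 2 to 4 lower for HFD against ND (4 without ND mouse 3), 2 to 3 and 5 to 8 for CLE against HFD, 2 to 3 and 5 to 7 for LU against HFD, 2 and 0 to 2 for CLE against ND (0 lower without ND mouse 2 or CLE mouse 11), 2 to 4 and 2 for LU against ND, and 0 and 0 for CLE against LU. The cause was not tested. Without any 1 HFD library, or under filters that removed it, Slc6a7 was not tested and has no value.

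ND, CLE and LU share some mouse numbers, and HFD shares none. Same-numbered mice deviated together with r of -0.10 to 0.19, so the numbers were not taken to pair the mice. With the mouse number as a replicate block (estimated correlation 0.087), 5 members were higher in LU against ND, and Slc7a7 in LU against HFD (-0.58) was under the fold limit. The letter R as a covariate had 0 of 31 members with p under 0.05 in limma. No HFD library carries the letter, so its effect was estimated within the other groups only.

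Among the members named, a sign changed only in differences that were not called and lay between -0.16 and 0.20. Over the libraries left out in turn, Slc38a2 ranged from -0.26 to 0.02 for HFD against ND and from -0.33 to 0.02 for CLE against HFD, Slc3a2 from -0.16 to 0.10 for CLE against HFD, and Slc36a2 from -0.21 to 0.01 and Slc6a13 from -0.16 to 0.02 for HFD against ND. For HFD against ND, Slc36a2 was 0.47 with its highest transcript, 0.21 without assembled variants and 0.01 without HFD mouse 12, Slc38a2 turned without ND mouse 2, Slc3a2 was -0.21 without the letter R libraries, and Slc6a13 turned without HFD mouse 12. For CLE against HFD, Slc38a2 turned without CLE mouse 2, and Slc3a2 was 0.01 with quantile normalization, 0.03 without HFD mouse 12 and 0.10 without CLE mouse 2. Depth is unknown, so the counting error of low FPKM is not known.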

Other observations

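Other transcripts left out of the members' sums were seen at higher levels. Rows antisense to Slc7a10 had 10.6, 9.51 and 20.4 FPKM in ND, 6.27, 5.11 and 8.28 in HFD, 19.7, 14.7 and 13.4 in CLE, and 14.1, 9.86 and 10.3 in LU, with the HFD mice lowest, as in Slc7a10 itself. Rows that overlap Slc1a5 without sharing its splicing had 16.4 to 43.8 FPKM over the 12 libraries, with overlapping groups.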
